A study of Mus musculus with 20 samples.

Results

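The 35 genes described here code for glutamate receptors and the auxiliary subunits that travel with them. They were chosen by symbol from the 24421 genes of the count data, as 4 AMPA receptor genes, 7 NMDA receptor genes, 5 kainate receptor genes, 1 delta receptor gene (Grid1), 6 metabotropic receptor genes, 10 genes of AMPA receptor auxiliary subunits and 2 genes of kainate receptor auxiliary subunits (Neto1 and Neto2). RNA-seq libraries were made from poly-A RNA of neocortex and of hippocampus of 3-month-old mice (20 libraries, 5 per genotype in each region, from 5 mice of each genotype according to the methods of the study). Both genotypes carried floxed alleles of App, Aplp1 and Aplp2 on a hybrid C57BL/6J and 129 background. The conditional triple knockout mice (cTKO, APP/APLP1/APLP2 -/- in the labels) had in addition the transgene Camk2a-Cre, which is active after birth in excitatory neurons of the forebrain, so other cells of the tissue keep the genes. The controls were littermates without Cre, called wild type in the labels, and both sexes were used. Libraries are named here by genotype, region and the number in their label, and the sources do not say that one number marks one mouse.

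Glutamate is the main excitatory transmitter of the cerebral cortex. AMPA receptors are tetramers of GluA subunits and carry most of the fast current. NMDA receptors join the obligatory GluN1 subunit with GluN2 or GluN3 subunits and pass calcium when glutamate and depolarization coincide. Kainate receptors are built from GluK subunits and act on both sides of the synapse. Metabotropic receptors are G protein-coupled, and Grm5 belongs to the group that couples to phospholipase C while Grm2, Grm3, Grm4, Grm7 and Grm8 lower cyclic AMP. Auxiliary subunits form no channel themselves. The transmembrane AMPA receptor regulatory proteins (TARPs, Cacng genes), the cornichons (Cnih2 and Cnih3), GSG1L (Gsg1l) and CKAMP44 (Shisa9) bind AMPA receptors and set their traffic and gating, and NETO1 and NETO2 do so for kainate receptors.

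Total counts per library ranged from 12169474 to 25331954, so that 3 counts, taken as the least a library can show, corresponded to between 0.118 and 0.247 CPM (counts scaled to a common library total, with the TMM method), a limit that covers counting error only. Of the 35 genes, 34 passed the filter on low counts, a CPM above 1 in at least 5 libraries of the comparison. Grin3b, a GluN3 subunit gene, did not and was at most at 0.392 CPM. The labels were checked with the targeted genes, and within each region all cTKO libraries were below all controls. App fell by 2.10 in the neocortex and by 1.78 in the hippocampus on the log2 scale, Aplp1 fell by 1.92 and 1.93, and Aplp2 fell by 1.60 and 1.25. There were 4 libraries that stood apart. Embryonic globin (Hbb-y) was at 195 CPM in cTKO neocortex library 5 and at 120.0 CPM in cTKO hippocampus library 4, against at most 0.812 CPM elsewhere. Ttr of the choroid plexus was at 2450 CPM in control hippocampus library 3, against at most 529 CPM elsewhere. In cTKO neocortex library 3, the 2647 genes with the longest transcripts deviated from the median of the other libraries of their group by a median of -0.19 on the log2 scale. Long transcripts were also low in cTKO hippocampus libraries 1 and 2, at -0.133 and -0.121, and these were not counted among the 4. Counts of genes that passed a test are also given without the 4 libraries that stood apart where that changed them, an alternative chosen after seeing the data.

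Per kilobase (kb) of annotated exon, counted over all transcripts of a gene, Cnih2 had the highest mean level of the 35 genes in control neocortex, at 126 ± 8.75 CPM per kb (SD, n = 5). Its product, cornichon-2, aids the export of AMPA receptors and slows their deactivation. Grin1, which codes for GluN1, followed at 83.3 ± 5.49 CPM per kb. Cacng3 (TARP γ-3) at 68.1 ± 2.22 and Gria1 (GluA1) at 67.8 ± 2.77 CPM per kb came next and differed by less than their spread. Grin2d, Grin2a and Grin3b were at the lower end, at 2.14 ± 0.327, 1.12 ± 0.196 and 0.0756 ± 0.0382 CPM per kb. The exons of Grin2b and Grin2a sum to 24.8 kb and 17.9 kb, the longest among the 35 genes, and their per-length levels depend on these lengths. The exons of Grin1 sum to 9.7 kb, while its longest coding transcript has 4276 bases. For Cnih2 these lengths are 1.369 kb and 1343 bases. At means of 808 CPM (Grin1) and 173 CPM (Cnih2) in control neocortex, the transcript lengths would put Grin1 above Cnih2. Of the 35 genes, 23 overlap another gene of the RefSeq annotation of GRCm38. Among them are Grin1, with Lrrc26 and its antisense gene Grin1os, and Cnih2, with Yif1a. Whether the counting used strand is not given in the sources used here, so reads from the overlapping parts may have been assigned to either gene or to neither.

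The shares of Gria1 and Gria4 in the AMPA receptor class lay further apart between the regions than between the genotypes. Gria1 took 39% ± 2.36 (SD, n = 5) of the summed CPM per kb of the 4 genes in control neocortex and 68.8% ± 1.39 in control hippocampus, and 41.3% ± 1.52 and 69.9% ± 1.59 in cTKO mice. Gria4 took 14.2% ± 0.977 in control neocortex and 3.73% ± 0.244 in control hippocampus, and 14% ± 0.851 and 3.80% ± 0.452 in cTKO mice. For both genes the libraries of the regions did not overlap. The class sum was 174 ± 4.99 CPM per kb in control neocortex and 295 ± 21.1 in control hippocampus, and 170.2 ± 12.1 and 288 ± 18.5 CPM per kb in cTKO mice. Cnih2 took 34.5% of the AMPA auxiliary class in control neocortex and 74.2% in control hippocampus, and 35.5% and 72.2% in cTKO mice. Within the NMDA class, Grin1 took between 73.5% and 79.1% in the 4 groups. These shares rest on the annotated exon lengths, and no test was run on them.

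**Figure D1:**
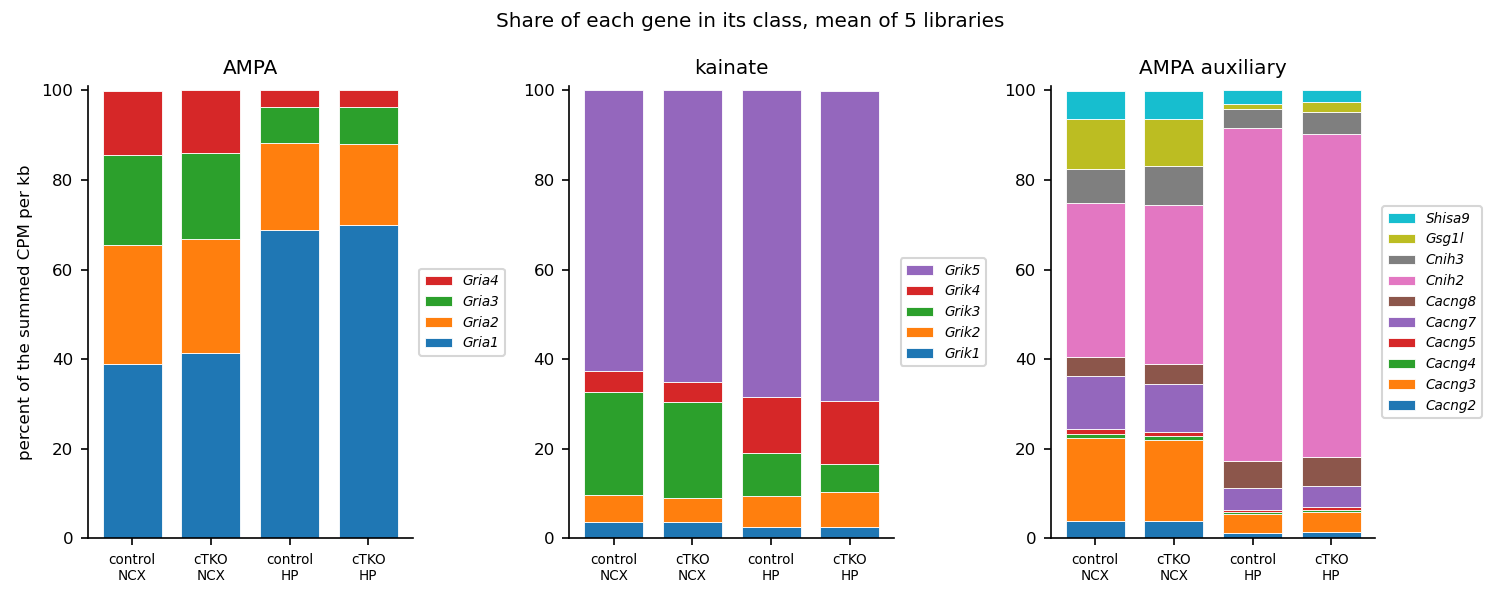
Stacked bars of the share, in percent of the summed CPM per kb of exon, that each gene took in its class (AMPA receptors, kainate receptors and AMPA auxiliary subunits), as means of 5 libraries in neocortex (NCX) and hippocampus (HP). Gria1 and Cnih2 took larger shares in the hippocampus (68.8% and 74.2% in controls) than in the neocortex (39% and 34.5%), while Gsg1l took 1.01 to 1.64% of its class in control libraries of the hippocampus and 1.65 to 2.97% in cTKO libraries, and Grik3 took 8.01 to 11.2% and 5.02 to 8.46%. The shares were not tested.

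Whether loss of the APP family went along with a change of these genes was asked in each region by the quasi-likelihood test of edgeR, with p adjusted over all genes tested by the method of Benjamini and Hochberg (FDR) and a threshold of 0.05. In the neocortex, 0 of 34 genes passed, against 26 of 13843 genes (0.188%), and 0 passed by edgeR's exact test (1.18% of all genes), edgeR's likelihood ratio test (1.21%) or DESeq2 (1.6%). An unadjusted p under 0.05 was found for 2 genes, Grin2a and Cacng7, against 10.4% of all genes. The genotypes overlapped for each of the 34 genes, while they did not overlap for 2.39% of all genes. The log2 fold changes ranged from -0.37 (Grin2a) to 0.25 (Grin3a) with a median of -0.057, beside a median of 0.009 over all genes tested. The 95% interval of the change lay within 0.5 on either side of 0 (log2) for 29 of the 34 genes and within 1.0 for all 34. The 5 genes whose interval reached beyond 0.5 were Grin2a, Grin2b, Grin2c, Grin3a and Cacng5.

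Grin2a (chr16:9567901-9996083 of GRCm38) codes for GluN2A, the GluN2 subunit that gains on GluN2B as the forebrain matures. It was at 25.3, 20.7, 18.9, 15.6 and 20.2 CPM in control neocortex libraries 1 to 5 and at 18.5, 17.4, 9.94, 15.3 and 16.2 CPM in cTKO neocortex libraries 1 to 5. Of the cTKO libraries, 2 were below every control and none was above. The log2 fold change was -0.37 (standard error, SE, 0.16, FDR 0.424, edgeR's quasi-likelihood test), and without the 4 libraries that stood apart it was -0.24. The lowest value was that of cTKO neocortex library 3, in which long transcripts were low, and the Grin2a transcript of 14634 bases is longer than those of 99.5% of the genes measured. Grin2b, which codes for GluN2B and has a transcript of 24060 bases, showed the same library at its lowest, with 122, 102, 117, 91.2 and 99.4 CPM in controls and 114, 93.9, 34.2, 115 and 90.5 CPM in cTKO neocortex. The part of transcript length in these values was not tested.

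Cacng7 (chr7:3332027-3368221) codes for TARP γ-7. It was at 96.4, 106, 105, 111 and 116 CPM in control neocortex and at 86.2, 93.4, 112, 82.6 and 86.4 CPM in cTKO neocortex, so that 4 of 5 cTKO libraries were below every control and library 3 was among the controls. Its log2 fold change was -0.21 (SE 0.083, FDR 0.399, edgeR's quasi-likelihood test). Without the 4 libraries that stood apart, it was -0.29 with an FDR of 0.0428 by the same edgeR test, and 2 genes then passed, Cacng7 lower and Grin3a higher in cTKO mice, against 2.94% of all genes. Over the alternatives, the FDR of Cacng7 ranged from 0.0428 to 0.613. Among AMPA receptor genes, the smallest p belonged to Gria3, whose product GluA3 pairs mostly with GluA2. It was at 369.9, 345, 341, 333 and 342 CPM in controls and at 284, 341, 306, 338 and 340.0 CPM in cTKO neocortex, where libraries 1 and 3 were below every control. The log2 fold change was -0.097 (SE 0.062, FDR 0.626, edgeR's quasi-likelihood test).

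Among hippocampal libraries, 0 of 34 genes passed by edgeR's quasi-likelihood test, against 67 of 13702 genes (0.489%). An unadjusted p under 0.05 was found for 5 genes (Gsg1l, Grik3, Grm2, Grik4 and Grik2), against 12% of all genes, and the genotypes overlapped for each of the 34 genes, while they did not overlap for 3.01% of all genes. The number that passed depended on the test. Gsg1l and Grik3, 2 genes, passed by edgeR's exact test, by its likelihood ratio test, by DESeq2 and by the quasi-likelihood test in one fit of all 20 libraries. More of all genes passed in these fits as well, with 1.88%, 1.89%, 2.42% and 1.33% of them. Without cTKO hippocampus library 5, Grik3 alone passed, against 1.09% of all genes. The log2 fold changes ranged from -0.52 (Grik3) to 0.70 (Gsg1l) with a median of -0.0068, beside 0.0049 over all genes tested. The 95% interval lay within 0.5 on either side of 0 (log2) for 26 of the 34 genes and within 1.0 for 33, the exception being Gsg1l.

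Gsg1l (chr7:125878412-126082757) codes for an auxiliary subunit that slows the recovery of AMPA receptors from desensitization. It was at 35.02, 28.8, 26.9, 25.2 and 37.8 CPM in control hippocampus libraries 1 to 5 and at 68.1, 39.5, 61.6, 37.4 and 42.6 CPM in cTKO hippocampus libraries 1 to 5. Of the cTKO libraries, 4 were above every control, and library 4 was just under the highest control. The log2 fold change was 0.70 (95% interval 0.32 to 1.08, FDR 0.118, edgeR's quasi-likelihood test). The FDR was 0.0106 by edgeR's exact test, 0.0104 by its likelihood ratio test, 0.00696 by DESeq2 and 0.0194 in one fit of all 20 libraries, and it reached 0.274 in other alternatives. Leaving out single libraries moved the log2 fold change between 0.56 and 0.78.

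Grik3 (chr4:125490259-125714173) codes for GluK3, a kainate receptor subunit of low affinity for glutamate. It was at 64.1, 66.5, 52.01, 60.97 and 76.7 CPM in control hippocampus and at 50.3, 35.97, 41.2, 35.1 and 60.6 CPM in cTKO hippocampus. Of the cTKO libraries, 4 were below every control and library 5 was among the controls. The log2 fold change was -0.52 (SE 0.15, FDR 0.165, edgeR's quasi-likelihood test). Without cTKO hippocampus library 5 it was -0.65 with an FDR of 0.0326 by the same edgeR test, and over the alternatives the FDR ranged from 0.0278 to 0.319. Grik4, which codes for the high-affinity subunit GluK4, was at 51.9, 55.3, 56.3, 68.5 and 51.2 CPM in controls and at 79.5, 64.97, 63.3, 59.9 and 66.6 CPM in cTKO hippocampus, where library 1 alone was above every control (log2 fold change 0.24, FDR 0.315, edgeR's quasi-likelihood test). Grik2, which codes for GluK2, was at 60.6, 71.1, 68, 80.7 and 71.5 CPM in controls and at 77.3, 85.6, 77.01, 88.97 and 71.4 CPM in cTKO hippocampus, with 2 cTKO libraries above every control (log2 fold change 0.19, FDR 0.382, edgeR's quasi-likelihood test).

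Grm2 (chr9:106644534-106656109) codes for mGlu2, a receptor that lowers glutamate release. It was at 58.2, 67.8, 55.7, 74.97 and 66.2 CPM in control hippocampus and at 118, 91.4, 66.4, 74.2 and 77.1 CPM in cTKO hippocampus, where 3 of 5 libraries were above every control and library 1 was the highest. The log2 fold change was 0.41 (SE 0.14, FDR 0.256, edgeR's quasi-likelihood test). Grid1 codes for GluD1, a receptor known as a synaptic organizer. It was at 68.7, 66.1, 55.98, 65.9 and 67.8 CPM in controls and at 57.7, 54.5, 58.5, 50.97 and 66.98 CPM in cTKO hippocampus, with 2 cTKO libraries below every control (log2 fold change -0.16, FDR 0.433, edgeR's quasi-likelihood test). Neto2 was at 67.5, 54.4, 56.2, 56.2 and 72.1 CPM in controls and at 46.1, 49.6, 56.7, 55.98 and 58.1 CPM in cTKO hippocampus, with 2 cTKO libraries below every control (log2 fold change -0.20, FDR 0.443, edgeR's quasi-likelihood test).

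Markers of other cells varied among the hippocampal libraries. The summed level of 6 astrocyte markers ranged from 2780 to 3578 CPM in controls and from 2712 to 5498 CPM in cTKO mice, and Gfap was at 1460 CPM in cTKO library 1 and 3080 CPM in cTKO library 4 against at most 557 CPM in controls. The 6 markers differed in direction. Gfap and Aqp4 stood at 1.58 and 0.42 on the log2 scale by genotype, Aldh1l1 at 0.016, and Gja1, Aldoc and Slc1a3 at -0.16, -0.20 and -0.20, with 0 of 6 past the threshold by edgeR's quasi-likelihood test, 1 of 6 (Gfap) with an unadjusted p under 0.05 and a median of -0.0722. The summed level of 6 excitatory neuron markers ranged from 9298 to 10650 CPM in controls and from 8189 to 10130 CPM in cTKO mice. Camk2a made up most of this sum, with a control mean of 7981 ± 555 CPM (SD) and a cTKO mean of 6881 ± 717 CPM. Camk2a stood at -0.21 on the log2 scale, and Slc17a7 and Neurod2 at 0.22 and 0.25, again with 0 of 6 past the threshold, 3 of 6 (those named) with an unadjusted p under 0.05 and a median of -0.0689. The 6 changes ranged from -0.32, of a marker not named here, to 0.25. The summed level of 3 choroid plexus markers ranged from 71.3 to 2599 CPM in controls, highest in the library 3 that stood apart, and from 107 to 579 CPM in cTKO mice. Their median log2 fold change was -1.76, with 0 of 3 past the threshold and 2 of 3 (Folr1 and Kl) with an unadjusted p under 0.05. Of 5 striatal neuron markers, 1 passed, higher in cTKO mice and with no overlap of the genotypes, against 0.489% of all genes. Their log2 fold changes ranged from -0.81 to 1.92 with a median of 0.038, and 2 of 5 had an unadjusted p under 0.05. For 5 markers of dentate granule cells and hippocampus the range was -0.83 to 0.77, with 0 past the threshold and 2 with an unadjusted p under 0.05 (edgeR's quasi-likelihood test). In these lists, 0 markers were at 0 throughout a group. Their part in the levels of Gsg1l, Grik3 and Grm2 was not tested. In bulk tissue, fewer cells of a type and less RNA per cell cannot be told apart.

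**Figure D2:**
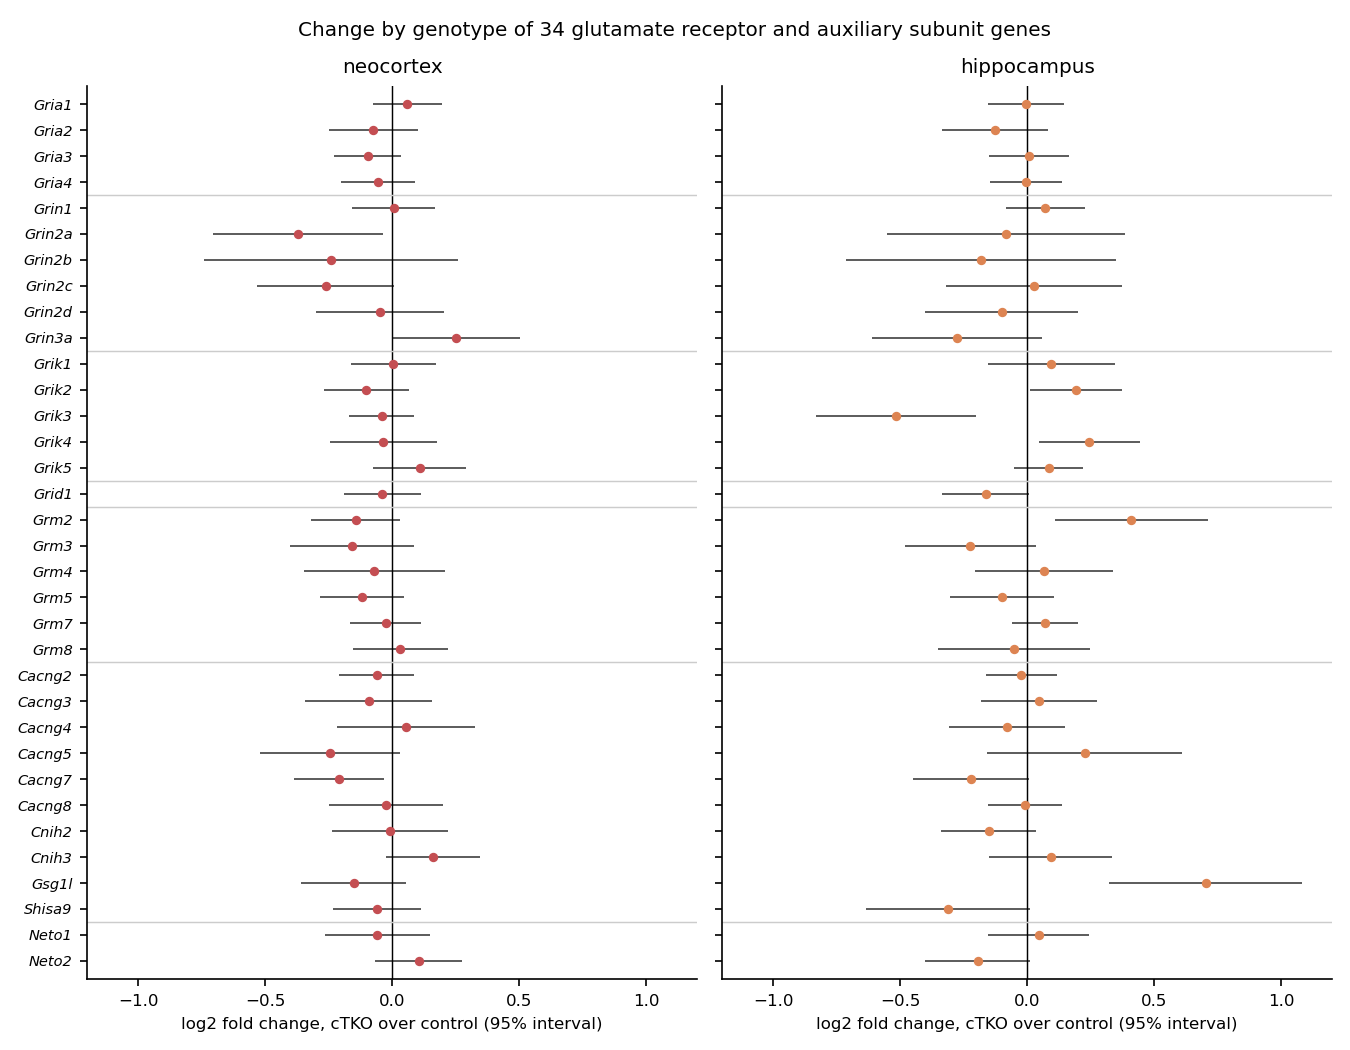
Log2 fold change of cTKO over control with its 95% interval from edgeR's quasi-likelihood fit for the 34 genes tested, in neocortex and hippocampus, with grey lines between the classes. The points lie between -0.37 and 0.25 in the neocortex and between -0.52 (Grik3) and 0.70 (Gsg1l) in the hippocampus, and 0 of the 34 genes passed an FDR of 0.05 by this test in either region.

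**Figure D3:**
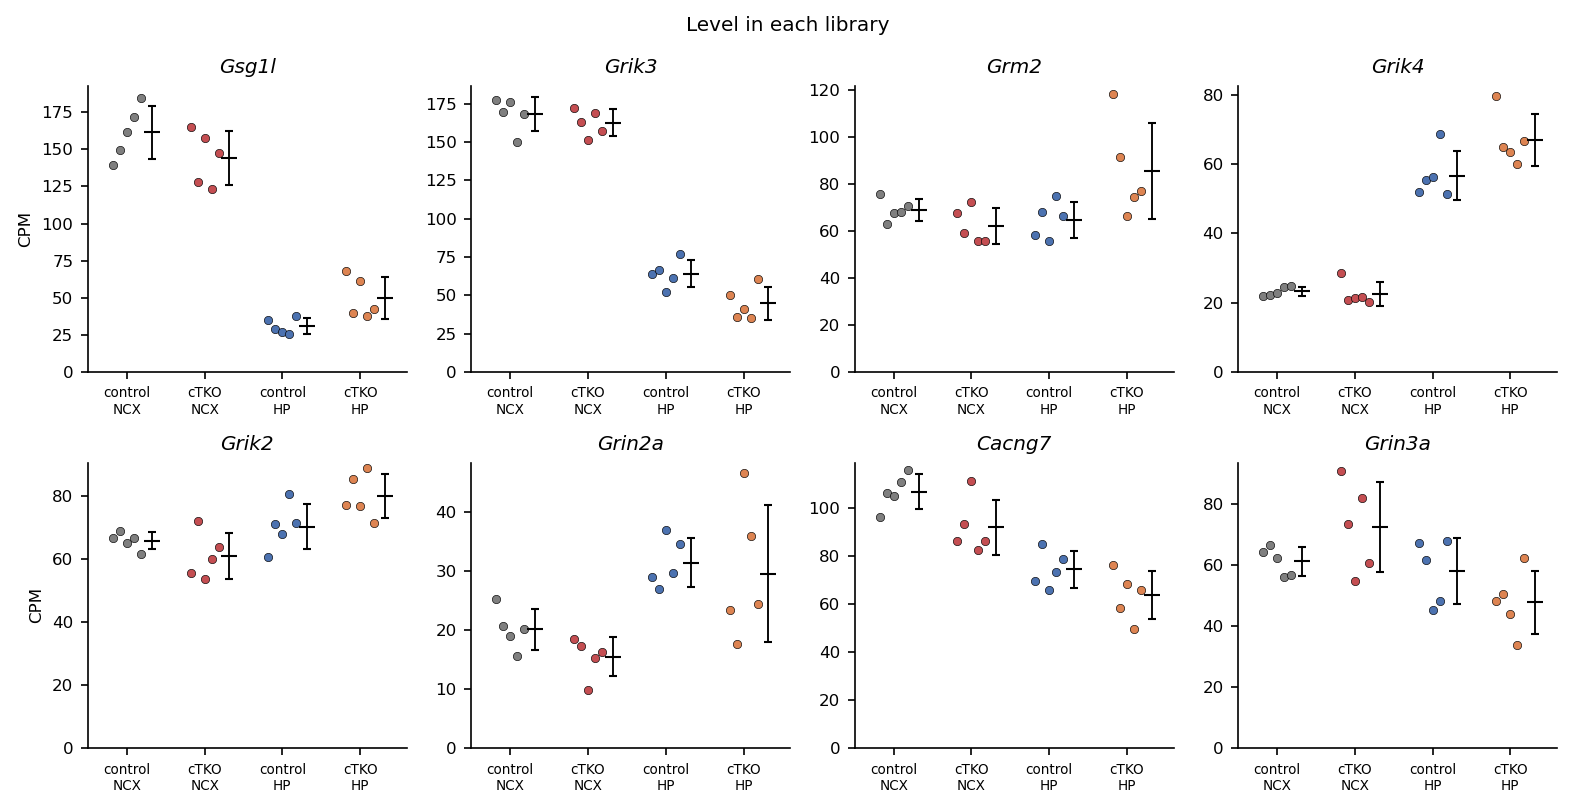
CPM in each of 5 libraries per group, in neocortex (NCX) and hippocampus (HP), for 8 of the genes with an unadjusted p under 0.05 in a genotype comparison or the interaction, with the mean and SD as a black mark and bar beside the points. Neto2, with such a p in the interaction, is not shown. The genotypes overlap within each region, and in the hippocampus 4 of 5 cTKO libraries lie above every control for Gsg1l and below every control for Grik3.

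Whether the change by genotype differed between the regions was tested as the interaction of region and genotype over all 20 libraries. By edgeR's quasi-likelihood test, 0 of 34 genes passed, against 8 of 14192 genes (0.0564%). An unadjusted p under 0.05 was found for 7 genes (Gsg1l, Grm2, Grik3, Grik2, Grin3a, Neto2 and Grik4), against 3.75% of all genes. Gsg1l was at 139, 149.7, 162, 172 and 185 CPM in control neocortex and at 165, 128, 158, 124 and 148 CPM in cTKO neocortex. There 2 cTKO libraries were below every control, in contrast to the hippocampus, where most were above. Neocortical Gsg1l thus had a log2 fold change of -0.15, which the hippocampal one exceeded by 0.86 (SE 0.21, FDR 0.286, edgeR's quasi-likelihood test). This difference passed by edgeR's likelihood ratio test (FDR 0.0358, 0.183% of all genes) and by DESeq2 (FDR 0.0359, 0.184% of all genes). It also passed by the quasi-likelihood test with the library number as a replicate block (FDR 0.0359, 0.127% of all genes). Whether a number marks a mouse is not given, and same-numbered cTKO libraries 4 and 5 did not deviate together over all genes. The FDR of the Gsg1l difference ranged up to 0.553 over the alternatives.

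Grin3a codes for a GluN3 subunit that lowers the calcium permeability of NMDA receptors. It was at 64.4, 66.8, 62.4, 56.3 and 56.8 CPM in control neocortex and at 90.9, 73.7, 54.99, 82.2 and 60.7 CPM in cTKO neocortex, and at 67.5, 61.9, 45.2, 48.4 and 67.9 CPM in control hippocampus and 48.2, 50.5, 44.2, 33.9 and 62.4 CPM in cTKO hippocampus. In the neocortex 3 cTKO libraries were above every control, and in the hippocampus 2 were below every control. The log2 fold change in the hippocampus minus that in the neocortex was -0.52 (SE 0.21, FDR 1, edgeR's quasi-likelihood test). The difference was 0.56 for Grm2 (FDR 0.661) and -0.47 for Grik3 (FDR 0.908) by the same edgeR test. For Grik2, Neto2 and Grik4 it was 0.30, -0.29 and 0.29 with an FDR of 1 each. In the neocortex Grm2 was at 75.6, 62.8, 67.5, 68.04 and 70.45 CPM in controls and at 67.7, 59.01, 72.2, 55.5 and 55.5 CPM in cTKO mice, 3 of them below every control. Grik2 was at 66.85, 69.1, 65.1, 66.7 and 61.8 CPM and at 55.5, 72.1, 53.8, 60.1 and 63.96 CPM, with 3 below and 1 above every control. Neto2 was at 96.5, 80.5, 73.98, 76.3 and 72.8 CPM and at 82.3, 85.4, 77.99, 91.9 and 90.4 CPM, all among the controls.

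Most of the genes differed between hippocampus and neocortex. In controls, 28 of 34 genes passed by edgeR's quasi-likelihood test, against 59.1% of 13832 genes, with 10 higher in the hippocampus (29.8% of all genes) and 18 lower (29.2%). In cTKO mice, 26 of 34 genes passed, against 41.3% of 13846 genes, with 9 higher (20.2% of all genes) and 17 lower (21.1%). The median log2 fold change was -0.28 in controls and -0.22 in cTKO mice, beside 0.012 and -0.0028 over all genes. The regions did not overlap for 7 genes higher and 14 lower in the hippocampus of controls, against 44% of all genes (22.3% and 21.7%), and for 6 higher and 12 lower in cTKO mice, against 28.6% (14.8% and 13.8%). In both genotypes 23 genes passed in the same direction, of which 7 were higher (Gria1, Grin2a, Grik4, Grm5, Cacng8, Cnih2 and Neto1) and 16 lower, and 3 genes passed in neither (Grin2c, Grik5 and Cnih3). The RNA of the regions was extracted with different kits, so region and kit cannot be told apart.

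**Figure D4:**
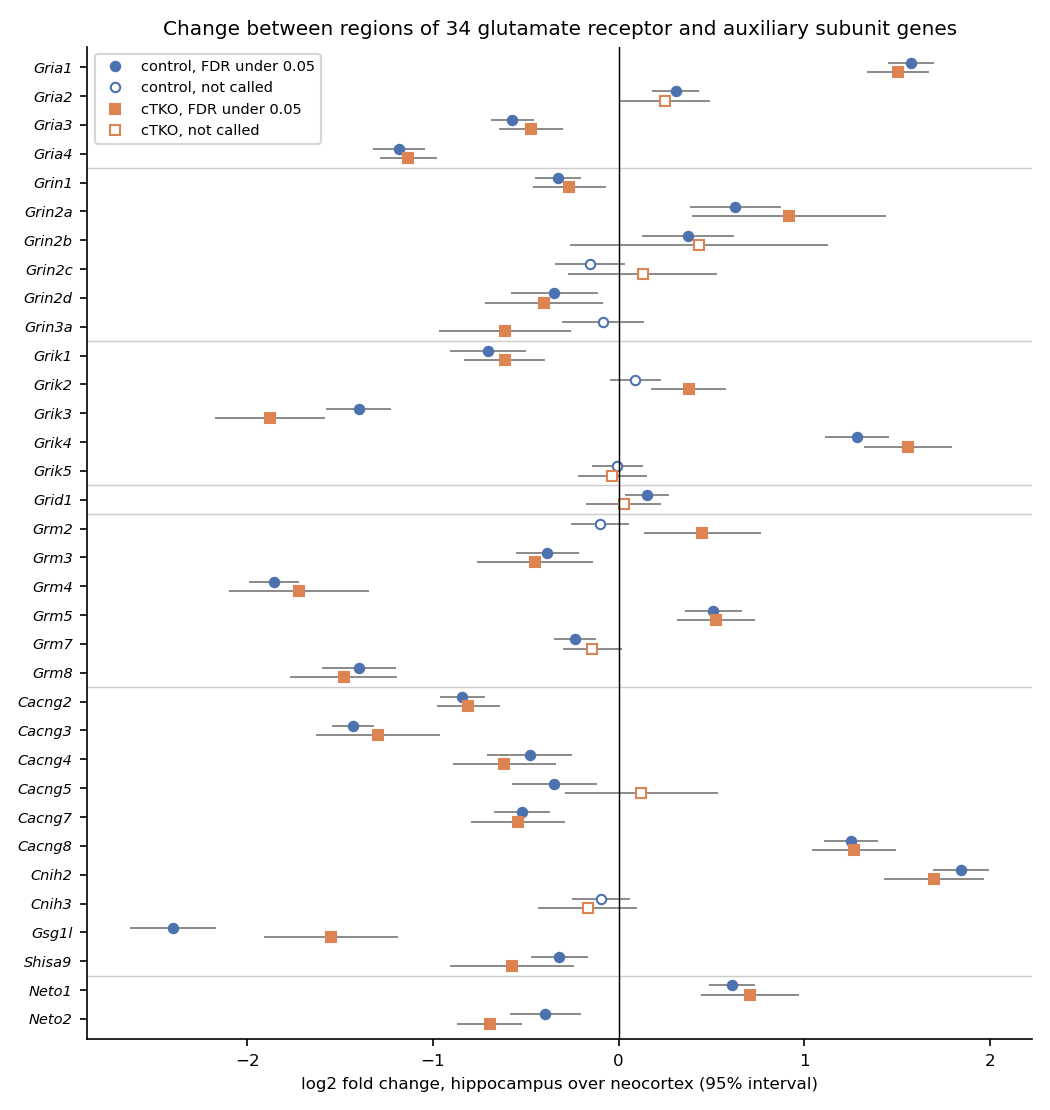
Log2 fold change of hippocampus over neocortex with its 95% interval from edgeR's quasi-likelihood fit for the 34 genes tested, in controls (circles) and cTKO mice (squares), filled where the FDR is under 0.05, with grey lines between the classes. For 23 genes the points of both genotypes are filled and on the same side of 0, among them Gsg1l at -2.40 and -1.55 and Cnih2 at 1.85 and 1.70.

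Of the AMPA receptor genes, Gria1 (chr11:57011571-57330244) was at 385, 423, 401, 424 and 417 CPM in control neocortex and at 1180, 1213, 1100, 1261 and 1374 CPM in control hippocampus. In cTKO mice it was at 450.5, 448, 378, 449.7 and 396 CPM in the neocortex and at 1127, 1245, 1179, 1219 and 1313 CPM in the hippocampus. Every hippocampal library was above every neocortical library, with a log2 fold change of 1.58 in controls (SE 0.059, FDR 1.31e-11) and 1.51 in cTKO mice (SE 0.077, FDR 3.59e-08, edgeR's quasi-likelihood test). Gria2 codes for GluA2, whose edited form keeps AMPA receptors from passing calcium. Its log2 fold change was 0.31 in controls (FDR 0.00039) and 0.25 in cTKO mice, where it missed the threshold (FDR 0.0918, edgeR's quasi-likelihood test). Gria3 was lower in the hippocampus, with log2 fold changes of -0.57 and -0.47, and so was Gria4, a subunit prominent in interneurons, with -1.18 and -1.13.

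Cnih2 (chr19:5092868-5098521) was at 164, 167, 162, 186 and 186 CPM in control neocortex and at 529, 669, 644, 665 and 618 CPM in control hippocampus. In cTKO mice it was at 153, 182, 216, 173 and 131 CPM in the neocortex and at 577, 619, 605, 482 and 520.5 CPM in the hippocampus. The regions did not overlap, with a log2 fold change of 1.85 in controls (SE 0.07, FDR 1.67e-11) and 1.70 in cTKO mice (SE 0.13, FDR 6.79e-07, edgeR's quasi-likelihood test). Its paralog Cnih3 passed in neither genotype, with log2 fold changes of -0.094 (95% interval -0.25 to 0.061) and -0.17 (95% interval -0.43 to 0.10).

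The 250 bases before the annotated starts of Cnih2, Gria4 and Cnih3 are shown as examples of a gene that was higher, one that was lower and one that did not pass between the regions. RefSeq promoter entries on GRCm38.p6 were found for 22 of the 35 genes, and 7 of these had 1 window that ends just before the first base of a GENCODE transcript and holds no annotated exon, from which these 3 were taken after the values were seen. They are written 5′ to 3′ on the strand of the gene, and capitals mark the Sp1 motif GGGCGG or its reverse complement CCGCCC.
Cnih2, chr19:5098522-5098771, minus strand: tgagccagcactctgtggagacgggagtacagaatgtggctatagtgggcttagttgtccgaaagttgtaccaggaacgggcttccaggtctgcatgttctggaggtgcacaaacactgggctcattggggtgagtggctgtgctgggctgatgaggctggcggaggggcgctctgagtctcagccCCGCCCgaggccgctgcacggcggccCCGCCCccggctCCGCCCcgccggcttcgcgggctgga
Gria4, chr9:4796235-4796484, minus strand: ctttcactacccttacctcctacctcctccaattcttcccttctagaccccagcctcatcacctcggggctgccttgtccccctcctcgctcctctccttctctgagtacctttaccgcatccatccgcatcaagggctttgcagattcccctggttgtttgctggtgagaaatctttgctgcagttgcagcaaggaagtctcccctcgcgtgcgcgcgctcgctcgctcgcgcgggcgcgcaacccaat
Cnih3, chr1:181352378-181352627, plus strand: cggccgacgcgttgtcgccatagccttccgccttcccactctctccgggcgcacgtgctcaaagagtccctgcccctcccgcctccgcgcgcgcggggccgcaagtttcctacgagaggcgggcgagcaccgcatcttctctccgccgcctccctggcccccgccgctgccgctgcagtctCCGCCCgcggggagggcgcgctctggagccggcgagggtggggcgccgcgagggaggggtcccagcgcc
The Sp1 motif occurred 3 times before Cnih2, 1 time before Cnih3 and 0 times before Gria4. It occurred in at least 1 window of 13 of the 22 genes with an entry, against 35.4% of all 27025 genes with an entry, and in 32.7% of all 32851 promoter windows of this length. The cyclic AMP response element TGACGTCA (1.55% of all windows), the NRF1 motif (3.74%) and the Egr1 motif GCGTGGGCG (0.536%) were searched on both strands as well and had 0 matches in these 3 windows. The matches describe letters, not binding.

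Gsg1l had the largest difference between the regions of controls among the 34 genes, with a log2 fold change of -2.40 (SE 0.11, FDR 1.04e-10), against -1.55 in cTKO mice (SE 0.17, FDR 1.5e-05, edgeR's quasi-likelihood test). Its highest hippocampal library, at 68.1 CPM, was below its lowest neocortical library, at 124 CPM. Cacng3 (chr7:122671744-122769393) was at 189, 180.2, 198, 189 and 189.5 CPM in control neocortex and at 75.2, 67.2, 66.7, 66.96 and 76.04 CPM in control hippocampus. In cTKO mice it was at 119, 182, 218, 184 and 179 CPM in the neocortex and at 65.1, 71.4, 92.2, 57.7 and 75.5 CPM in the hippocampus. The regions did not overlap, and the log2 fold change was -1.43 in controls (FDR 1.13e-11) and -1.30 in cTKO mice (FDR 3.44e-05, edgeR's quasi-likelihood test). Cacng8 codes for TARP γ-8, the TARP best known from the hippocampus, and was higher there, with log2 fold changes of 1.25 in controls and 1.27 in cTKO mice. Cacng2 (stargazin), Cacng4, Cacng7 and Shisa9 were lower in the hippocampus of both genotypes, with log2 fold changes in controls of -0.84, -0.48, -0.52 and -0.32. Cacng5 was lower in controls (-0.35) and did not pass in cTKO mice (0.12).

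Among kainate receptor genes, Grik3 was lower and Grik4 higher in the hippocampus. Grik3 was at 178, 169.8, 176, 150.2 and 168 CPM in control neocortex and at 172, 163, 151, 169 and 158 CPM in cTKO neocortex, above all hippocampal libraries, which reached 76.7 CPM. Its log2 fold change was -1.40 in controls (FDR 1.77e-09) and -1.88 in cTKO mice (FDR 5.71e-07, edgeR's quasi-likelihood test), the largest among the 34 genes in cTKO mice. Grik4 (chr9:42518182-42945000) was at 21.9, 22.1, 22.7, 24.6 and 24.7 CPM in control neocortex and at 28.4, 20.9, 21.2, 21.6 and 20.2 CPM in cTKO neocortex, below all hippocampal libraries, which began at 51.2 CPM. Its log2 fold change was 1.28 in controls (FDR 3.92e-09) and 1.56 in cTKO mice (FDR 4.35e-07, edgeR's quasi-likelihood test). Per kb of exon, Grik4 took 4.73% of the kainate class in control neocortex and 12.6% in control hippocampus, and Grik3 took 22.9% and 9.48%. Grik5, which codes for GluK5 and forms channels only with another subunit, held most of the class in both, at 62.7% and 68.4%. Grik1 was lower in the hippocampus, with log2 fold changes of -0.70 and -0.61, while Grik2 passed in cTKO mice (0.38) and not in controls (0.088). Of the auxiliary subunits, Neto1 was higher in the hippocampus, with log2 fold changes of 0.61 and 0.71, and Neto2 lower, with -0.40 and -0.70.

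Among metabotropic receptor genes, Grm5 was higher in the hippocampus, with log2 fold changes of 0.51 in controls and 0.52 in cTKO mice, and Grm3, Grm4 and Grm8 were lower. Grm4 (chr17:27422387-27513826), which codes for a presynaptic receptor, was at 42.5, 44.9, 46.5, 43.8 and 47.9 CPM in control neocortex and at 13.2, 13.02, 11.9, 11.9 and 12.4 CPM in control hippocampus. In cTKO mice it was at 36.4, 44.1, 60.6, 34.4 and 38.03 CPM in the neocortex and at 15.8, 12.3, 15.4, 9.61 and 12.1 CPM in the hippocampus. The regions did not overlap, and the log2 fold change was -1.86 in controls (FDR 5.88e-12) and -1.72 in cTKO mice (FDR 8.97e-06, edgeR's quasi-likelihood test). Grm8 (chr6:27275121-28135146), of the same group of receptors, was at 21.3, 22.8, 22.5, 20.6 and 19.1 CPM in control neocortex and at 9.55, 8.01, 6.78, 7.82 and 8.38 CPM in control hippocampus. In cTKO mice it was at 23.9, 22.1, 21.9, 22.4 and 17.7 CPM and at 8.10, 10.02, 6.92, 6.29 and 7.64 CPM. Again the regions did not overlap, and the log2 fold change was -1.40 in controls (FDR 7.39e-09) and -1.48 in cTKO mice (FDR 3.13e-06, edgeR's quasi-likelihood test). For Grm3, which astrocytes express too, it was -0.38 and -0.45. Grm7 passed in controls (-0.23) and not in cTKO mice (-0.14), and Grm2 passed in cTKO mice (0.45) and not in controls (-0.10). The summed level of 5 markers of striatal neurons ranged from 293 to 410.1 CPM in control neocortex and from 67.9 to 92.9 CPM in control hippocampus, and from 316 to 557 CPM and 71.7 to 125 CPM in cTKO mice, with 0 of the 5 at 0 throughout a group. Their part in the difference of Grm4 and other genes between the regions was not tested.

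Among the 6 NMDA receptor genes tested, log2 fold changes between the regions lay between -0.35 (Grin2d) and 0.63 (Grin2a) in controls and between -0.61 (Grin3a) and 0.92 (Grin2a) in cTKO mice. Grin2a was at 29.04, 26.98, 37.01, 29.6 and 34.5 CPM in control hippocampus and at 23.5, 17.6, 46.5, 35.9 and 24.4 CPM in cTKO hippocampus, so that the regions did not overlap in controls and did in cTKO mice. Its log2 fold change was 0.63 in controls (FDR 0.000254) and 0.92 in cTKO mice (FDR 0.0088, edgeR's quasi-likelihood test). Grin2b was at 126, 106, 167, 127 and 166 CPM in control hippocampus and at 77.9, 75.3, 204, 140.3 and 110.3 CPM in cTKO hippocampus, and its log2 fold change was 0.37 in controls (FDR 0.0119) and 0.43 in cTKO mice, where it missed the threshold (FDR 0.31, edgeR's quasi-likelihood test). In cTKO hippocampus library 3, both genes were at their highest. Grin1 and Grin2d, a subunit prominent in interneurons, were lower in the hippocampus, with log2 fold changes of -0.33 and -0.35 in controls and -0.27 and -0.40 in cTKO mice. Grin3a passed in cTKO mice (-0.61) and not in controls (-0.083). The delta receptor gene Grid1 passed in controls (0.15) and not in cTKO mice (0.027). For the 8 genes that passed in one genotype only, a difference between the genotypes did not pass in the interaction.

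Ratios of paralogous subunits were compared by two-sided exact permutation tests with Benjamini-Hochberg adjustment over 12 tests, 3 ratios in 4 comparisons. For 5 libraries against 5 there are 252 splits, and the smallest p they allow is 0.00794. The log2 ratio of Gria1 to Gria2 counts was -0.81 ± 0.15 (SD, n = 5) in control neocortex and 0.46 ± 0.11 in control hippocampus, a difference of 1.27 (exact permutation test, p = 0.00794, adjusted p = 0.0238). In cTKO mice it was -0.67 ± 0.12 and 0.59 ± 0.17, a difference of 1.26 (exact permutation test, adjusted p = 0.0238). The regions did not overlap in either genotype. The log2 ratio of Cacng8 to Cacng3 was -2.38 ± 0.13 in control neocortex and 0.31 ± 0.052 in control hippocampus, a difference of 2.69, and -2.30 ± 0.42 and 0.27 ± 0.19 in cTKO mice, a difference of 2.57 (exact permutation tests, adjusted p = 0.0238 in each genotype).

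The log2 ratio of Grin2b to Grin2a, which falls as the forebrain matures, was 2.41 ± 0.17 in control neocortex and 2.13 ± 0.11 in control hippocampus. The difference of -0.28 passed (exact permutation test, adjusted p = 0.0381), but with 1 library left out it still passed in only 2 of 10 cases, those without control neocortex library 1 or control hippocampus library 5. In cTKO mice the neocortical ratio was 2.44 ± 0.41 and the hippocampal ratio 2.02 ± 0.18, and the difference of -0.42 did not pass (exact permutation test, adjusted p = 0.159). Without cTKO neocortex library 3 it was -0.58 (exact permutation test, adjusted p = 0.019). Between the genotypes, 0 of the 3 ratios passed in either region and 0 had an unadjusted p under 0.05 by the exact permutation test. The ratio of Gria1 to Gria2 was higher in cTKO mice by 0.14 in the neocortex and by 0.13 in the hippocampus (exact permutation tests, adjusted p = 0.274 for each). With permutations kept within library numbers, by which the control libraries of the regions deviated together, 5 pairs allow no p below 0.0625. The adjusted p of the 3 ratios in controls was then 0.15 by the exact test.

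**Figure D5:**
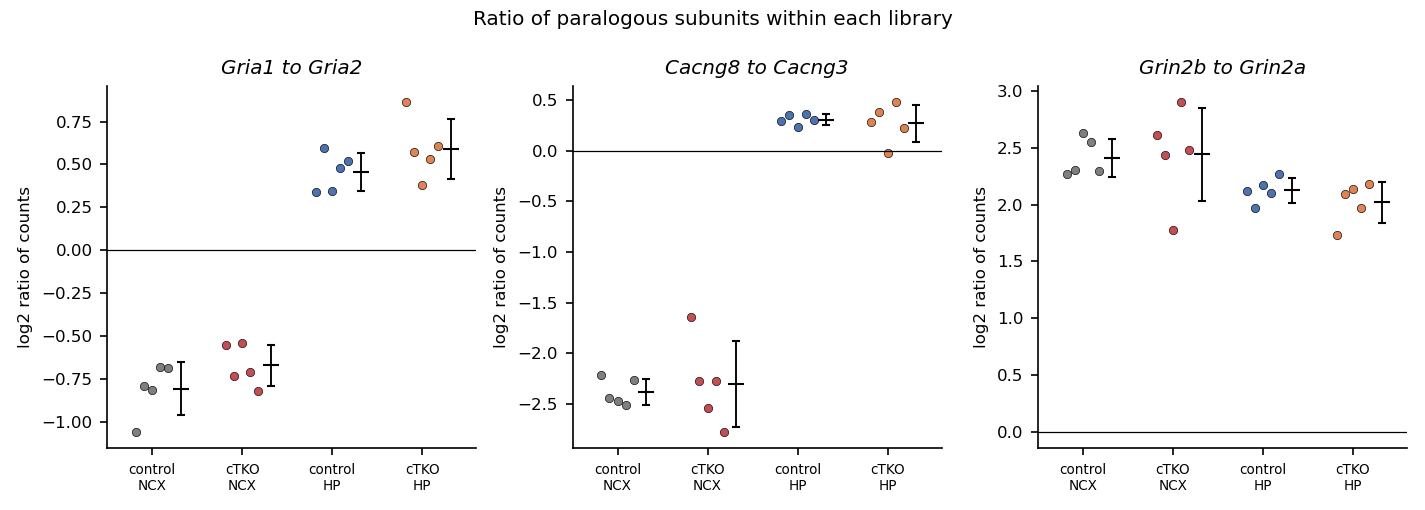
Log2 ratio of the counts of paralogous genes in each library, in neocortex (NCX) and hippocampus (HP), with the mean and SD of 5 libraries as a black mark and bar beside the points. The ratios of Gria1 to Gria2 and of Cacng8 to Cacng3 separate the regions in both genotypes (differences of 1.27 and 2.69 in controls), and the genotypes overlap within each region.

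Genes that act beside the receptors were counted in 3 lists, with 15 genes of glutamate transport and metabolism, 16 of AMPA receptor biogenesis and clustering and 16 of scaffolds that bind glutamate receptors. Between the genotypes, 0 genes of these lists passed in either region by edgeR's quasi-likelihood test. An unadjusted p under 0.05 was found for 4, 2 and 5 genes of the lists in the neocortex, against 10.4% of all genes, and for 4, 4 and 3 in the hippocampus, against 12%. By edgeR's exact and likelihood ratio tests and by DESeq2, Homer2 passed in both regions and Nptx2 in the hippocampus, and Slc38a2 passed in the neocortex by DESeq2 alone. Between the regions of controls, 5 transport genes were higher in the hippocampus and 4 lower, 6 and 4 of the AMPA receptor partners, and 5 and 7 of the scaffolds, against 29.8% of all genes higher and 29.2% lower. In cTKO mice these counts were 3 and 4, 4 and 3, and 6 and 5, against 20.2% and 21.1% of all genes. In both genotypes the largest differences in the 3 lists were those of Homer3, a scaffold of metabotropic receptors, with log2 fold changes of 3.15 in controls and 3.09 in cTKO mice, and of Shisa6, an AMPA receptor partner, with 3.01 and 2.99. Among genes lower in the hippocampus, the largest difference was that of Olfm2, a secreted protein found in AMPA receptor complexes, in controls (-1.90, and -1.29 in cTKO mice) and that of Slc17a6, a vesicular glutamate transporter, in cTKO mice (-1.73, and -1.35 in controls).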

How the data were processed

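The deposited files hold raw counts per gene and library. Reads had been aligned by the authors (STAR 2.5.4a, genome build mm10) and assigned to genes with HTSeq; the annotation and strand setting are not given in the sources used here. From the counts, edgeR 4.0.16 (R 4.3.3) was used with TMM scaling, a filter (CPM above 1 in at least 5 libraries), the quasi-likelihood test on the libraries of each comparison and Benjamini-Hochberg adjustment over all genes tested. Positive fold changes mean higher in cTKO mice or in the hippocampus. DESeq2 1.42.0, other edgeR tests, scalings and filters and fits without single libraries were alternatives. By genotype, the quasi-likelihood test called 26 genes in the neocortex and 67 in the hippocampus, and edgeR's exact test 163 and 257. The study's own edgeR analysis called more genes in each region at the same FDR than the quasi-likelihood test did here. Log2 ratios used counts plus 0.5. Exon lengths came from GENCODE, and positions and promoters from RefSeq on GRCm38. The tests were checked on simulated data.

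Values of every library are given for genes with an unadjusted p under 0.05 by genotype or interaction, for the gene of each class with the smallest p, and for the 8 genes with the largest change between the regions among those that passed in both genotypes. Values for Grin2b, and library values for genes outside this rule, were added after seeing the data. The genes, lists and rules were chosen with earlier results of these data known. According to the methods of the study, both regions were taken from 5 mice of each genotype, so libraries of one region are separate mice and the tests between the regions, fitted without a block, compare tissues of the same mice. The highest correlation between 2 libraries was 0.9923 (log2 CPM), and none was treated as a duplicate. Same-numbered control libraries of the regions deviated together over all genes (r from 0.129 to 0.334, each over 0.1). Control and cTKO neocortex libraries, which are different mice, had r of 0.148, 0.221 and 0.207 for numbers 1 to 3 and 0.039 and -0.009 for 4 and 5. A shared deviation therefore does not establish that 1 number marks 1 mouse. For the cTKO regions r was 0.319 to 0.396 for numbers 1 to 3 and below 0 for 4 and 5 (-0.057 and -0.071). The r of cTKO neocortex library 5 and cTKO hippocampus library 4, both with embryonic globin, was 0.575. These 2 libraries differed in Xist, a transcript that differs by sex, at 1235 and 0.615 CPM. Same-numbered libraries of the regions were in the same Xist class (high or low) in 10 of 10 pairs, cTKO numbers 4 and 5 included. The signs for the cTKO numbers were thus mixed, and the numbers were not taken as pairs in the main fits.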

Additional observations from a re-analysis of the deposited data

Results flagged for a closer look

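Single libraries lay far from the other 4 of their group in 10 of the 136 groups of 5 libraries screened with Dixon's test, where chance gives about 1 in 20, or 6.8. In cTKO hippocampus library 1, where long transcripts were low, Gria2 was at 620 CPM against 837 to 906 CPM and Gria3 at 202 CPM against 238 to 250 CPM. In cTKO hippocampus library 4, Grin1 was at 575 CPM against 689 to 724 CPM, and in library 3 Grm7 was at 56.2 CPM against 64.7 to 65.9 CPM. In cTKO neocortex library 3, Grin2b was at 34.2 CPM against 90.5 to 115 CPM, and in library 1 Grik4 was at 28.4 CPM against 20.2 to 21.6 CPM. In cTKO neocortex library 5, which held embryonic globin transcripts, Grid1 was at 45.8 CPM against 57.3 to 59.9 CPM, Grm8 at 17.7 CPM against 21.9 to 23.9 CPM and Cacng8 at 26.1 CPM against 37.4 to 38.3 CPM. In control hippocampus library 3, the library with high Ttr, Grid1 was at 56 CPM against 65.9 to 68.7 CPM. The causes were not tested.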

How the results depend on the processing

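Between the regions, the counts of genes that passed stayed within 1.5 times (25 to 28 in controls, 22 to 27 in cTKO mice), and the 8 genes given in full passed in the same direction under every alternative. By genotype, 2 genes passed in the neocortex without the 4 libraries that stood apart, and in the hippocampus 2 passed by the exact test, the likelihood ratio test, DESeq2 and one fit of 20 libraries, with 0 to 1 when single libraries were left out. In the interaction, 1 gene passed by the likelihood ratio test, by DESeq2 and with the library number as a replicate block.

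With the replicate block, the 5 region ratios that had passed had an exact p of 0.0625, the smallest possible (Grin2b to Grin2a -0.2827 in controls; Gria1 to Gria2 1.2654 in controls and 1.2631 in cTKO mice; Cacng8 to Cacng3 2.6893 and 2.5691); 25 genes then passed between the regions of cTKO mice, without Grin1. Without the libraries with embryonic transcripts, the values that no longer passed were -0.2827 for Grin2b to Grin2a in controls and 1.2406 and 2.3984 for the others in cTKO mice, and without the 4 libraries they were -0.2952, 1.2713 and 2.2802. The libraries with embryonic transcripts are all cTKO, so the control ratio kept its exact p of 0.0159, and only the adjustment over 12 tests moved it (0.0635). For the cTKO ratios the exact permutation p was 0.0286 in both settings. That is the smallest these numbers of libraries allow, so these lost calls follow from the number of libraries. With single libraries left out, Grin2b to Grin2a ranged from -0.3183 to -0.2283 in controls and from -0.5847 to -0.3051 in cTKO mice between the regions, and by genotype in the neocortex from -0.0831 to 0.1966, below 0 without control library 1 (-0.0041), cTKO library 1 (-0.0125) or cTKO library 4 (-0.0831). Cacng8 to Cacng3 by genotype ranged from -0.0839 (without cTKO library 1) to 0.1999 in the neocortex and from -0.0911 to 0.0329 (without cTKO library 3) in the hippocampus. The causes of the changes with single libraries left out were not tested. At this depth Grin3b could not be tested, and 95% intervals by genotype were widest for Grin2b.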

Other observations

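Outside the receptors, Nptx2 and Homer2 were singled out after their values were seen. Nptx2, a pentraxin that clusters AMPA receptors, was at 59, 63.2, 61, 54.4 and 72.5 CPM in control neocortex and at 96, 75.8, 411, 88.9 and 53.7 CPM in cTKO neocortex libraries 1 to 5. In the hippocampus it was at 19.4, 19.6, 19, 16.1 and 27.5 CPM in controls and at 50.8, 48.3, 171, 40.9 and 22.9 CPM in cTKO mice. Library 3 was the highest cTKO library in both regions. By the quasi-likelihood test of edgeR its neocortical log2 fold change was 1.23, with an FDR of 0.338, and its hippocampal one 1.72, with an FDR of 0.125, and without cTKO library 3 of the region they were 0.36 and 1.01. Homer2, a scaffold that binds metabotropic receptors, stood at -0.51 in the neocortex with an FDR of 0.064 and at -0.58 in the hippocampus with an FDR of 0.102 by the same test. Neither passed the threshold in either region by this test. The study lists Homer2 among the genes lower in cTKO mice in both regions by its own edgeR analysis (FDR under 0.05). It measured the genes common to both regions again by qRT-PCR in other mice. According to the study, most of them showed the same pattern there. Homer2 is not among the genes it names as short of significance (Fndc9, Foxm1 and Top2a). By edgeR's exact and likelihood ratio tests and by DESeq2, Homer2 passed in both regions and Nptx2 in the hippocampus. Of 22 alternatives, Homer2 passed in 8 in the neocortex and in 5 in the hippocampus, and Nptx2 in 1 and in 4. Those of Homer2 in the neocortex included quasi-likelihood fits without cTKO library 3 or without cTKO library 5. The FDR over the alternatives ranged from 0.0113 to 0.563 and from 0.00597 to 0.278 for Nptx2 and from 0.000515 to 0.171 and from 0.00457 to 0.298 for Homer2, in neocortex and hippocampus (fits with edgeR and DESeq2).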
